A study of Drosophila melanogaster with 14 samples.

Results

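After 3 h of hormone, 602 places on the main chromosome arms carried a peak of an insulator protein that none of the 4 proteins studied had listed there before treatment and that none had listed there at 48 h. The cells were Kc167, a line from Drosophila melanogaster embryos, and the hormone was 20-hydroxyecdysone at 5e-07 M. The proteins CP190, Su(Hw), dCTCF and BEAF-32 were mapped by ChIP-seq, that is, immunoprecipitation of crosslinked chromatin followed by sequencing, in untreated cells (0 h) and after 3 and 48 h of hormone, with 1 library for each protein and time and no replicates. The regions were chosen from the peak lists themselves. The peaks of the 8 lists of treated cells on the 6 arms X, 2L, 2R, 3L, 3R and 4 were merged wherever they overlapped by at least 1 bp, which gave 13475 regions. A region was kept when it overlapped no 0 h peak of any protein and held peaks of 3 h but none of 48 h. The kept regions made up 4.81% of the 12504 merged regions with a 3 h peak. Since presence or absence of peaks defined them, everything below about their proteins, scores and widths is a description and was not tested. Intervals are 95% intervals for counting error only.

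Insulator proteins bind DNA at boundaries between chromosomal domains and between enhancers and promoters that should not act on each other. Su(Hw) recognises DNA through zinc fingers and is the protein of the gypsy retrotransposon insulator, dCTCF is the fly homologue of the vertebrate insulator protein CTCF, and BEAF-32 binds boundary elements that lie mostly near gene promoters. CP190 has a BTB domain through which it joins insulator complexes, and it is brought to DNA largely by such partners. 20-hydroxyecdysone is the steroid that starts moulting and metamorphosis. It acts through a nuclear receptor made of EcR and Usp, which switches on a first set of genes within hours and later sets afterwards, so 3 h and 48 h sample an early and a late stage of the response.

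The lists held between 3333 peaks, for dCTCF at 48 h, and 8492 peaks, for Su(Hw) at 3 h, on the arms. BEAF-32 stood apart, since its arm list held 4187 peaks before hormone, 5882 at 3 h and 5896 at 48 h. On all sequences its lists differed less, with 6135, 6830 and 6536 peaks, because more of its 0 h peaks lay off the arms. Read depth is unknown, because the lists give no counts. How far list length and depth shape the membership was not tested beyond the shortened lists given below. Each peak carries a deposited score, which reached 3233.06, with many peaks at exactly 3100 and 488 above it.

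Nearly all of the regions bound at 3 h only held a single protein. Of the 602, 577 (95.8%, 93.9 to 97.2) held 1 protein, 24 held 2 and 1 held 3. No region held all 4, which allows a share of up to 0.498%. Among all 12699 regions made by merging the 3 h arm peaks alone, 47.2% held 1 protein and 11.4% held all 4. Among the 901 new regions bound at both 3 and 48 h, 78.2% (75.4 to 80.8) held 1 protein, and among the 847 new at 48 h only, 93.4% (91.5 to 94.9) did. Counting only the 3 h peaks in the regions bound at both times, 84.8% (82.3 to 87.0) held 1 protein.

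Su(Hw) was the most frequent member. It was found in 340 of the 602 regions (56.5%, 52.5 to 60.4) and was alone in 325 of them. These 340 peaks were 4.00% of the Su(Hw) arm peaks at 3 h. BEAF-32 was found in 176 regions (29.2%, 25.7 to 33.0), alone in 158, and the 176 peaks were 2.99% of its 3 h arm list. CP190 was found in 59 regions (9.80%, 7.67 to 12.4), alone in 49, which drew on 0.943% of its 3 h arm peaks. dCTCF was found in 53 regions (8.80%, 6.79 to 11.3), alone in 45, which drew on 1.30% of its 3 h arm peaks. In all 3 h regions, Su(Hw) was in 64.0%, CP190 in 48.9%, BEAF-32 in 44.9% and dCTCF in 30.6%. With BEAF-32 second among the 3 h only regions and CP190 second among all, the order differed. With the 3 lists of each protein shortened to equal length by score, there were 363 regions. Su(Hw) was then in 72.45% of them and dCTCF in 7.16%. CP190 (11.57%, 8.67 to 15.27) and BEAF-32 (11.29%, 8.44 to 14.96) were about level, so their order is not settled. CP190 was the sole protein in 83.1% (71.5 to 90.5) of the 3 h only regions that held it. Among regions new at 48 h only the share was much the same, 82.6% (72.0 to 89.8). It was 3.96% (3.51 to 4.48) of the CP190 regions that overlapped a 0 h peak, which pool peaks of 3 and 48 h. The rule itself leaves out CP190 peaks on a 0 h site of another protein.

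**Figure D1:**
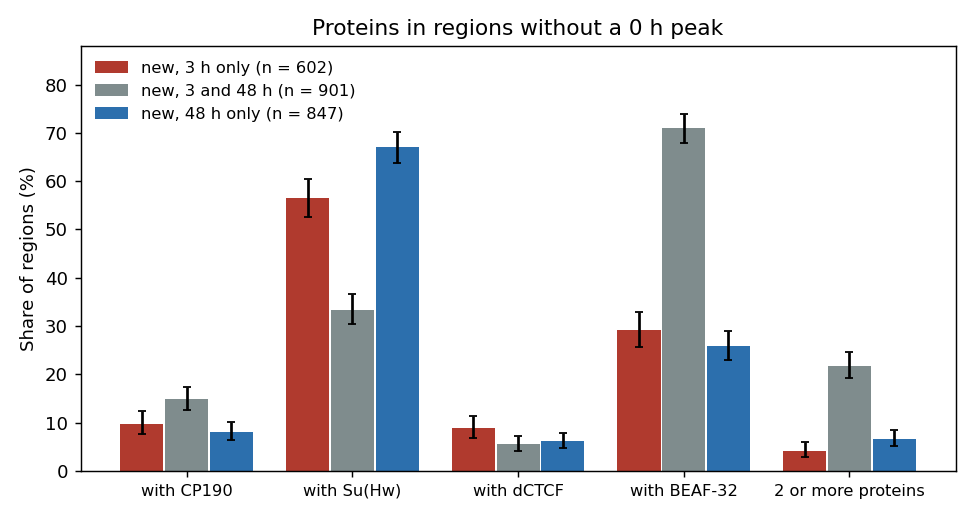
Share of new regions, in percent, that held each protein and that held 2 or more proteins, for regions bound at 3 h only, at 3 and 48 h and at 48 h only. Bars are shares and error bars are 95% Wilson intervals. Su(Hw) is in 56.5% of the 3 h only regions, whereas BEAF-32 is in 71.0% of the regions bound at both times.

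The proteins of the 3 classes of new regions are set side by side as a description, since the same peaks define the classes. BEAF-32 was in 29.2% of the regions bound at 3 h only and in 25.9% (23.0 to 28.9) of those bound at 48 h only, against 71.0% (68.0 to 73.9) of those bound at both times. Su(Hw) was in 56.5% of the 3 h only regions and in 67.1% (63.8 to 70.1) of the 48 h only regions, against 33.4% (30.4 to 36.6) of the lasting ones. dCTCF stood alone in 45 of its 53 regions at 3 h only and in 42 of its 52 at 48 h only. Lasting regions pool peaks of both treated times, so the 3 h peaks alone are the closer comparison: 15 of the 45 lasting regions with a 3 h dCTCF peak had no 3 h peak of another protein, and 12 of the 45 also had a dCTCF peak at 48 h. All 3 classes were defined with the same 0 h lists, of which that of BEAF-32 held 4187 arm peaks, against 5882 at 3 h and 5896 at 48 h. Whether this shaped the BEAF-32 shares was not tested. With the rule applied to each time in turn, 317 of 11734 regions (2.70%, 2.42 to 3.01) were bound at 0 h only, 602 of 12699 (4.74%, 4.38 to 5.12) at 3 h only and 847 of 12708 (6.67%, 6.24 to 7.11) at 48 h only.

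The 25 regions with more than 1 protein fell mainly into 3 pairs. CP190 with BEAF-32 and Su(Hw) with BEAF-32 formed 8 regions each, and Su(Hw) with dCTCF formed 5. In all 8 CP190 and BEAF-32 regions the CP190 peak was the wider of the pair, and in 7 the BEAF-32 peak lay wholly inside it. The peak centres were between 0.5 and 121 bp apart in those regions, with a median of 51.5 bp, and the scores ran from 105.75 to 187.96 for CP190 and from 107.66 to 350.69 for BEAF-32. For Su(Hw) and BEAF-32 the centres were between 1.0 and 173.5 bp apart, with a median of 11 bp. In 16 of the 25 regions no peak reached a score of 200.

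A single region brought together 3 proteins. It was 3L:16054137-16054816, 680 bp wide, where Su(Hw) had a score of 269.83 at 3 h, dCTCF 186.57 and BEAF-32 139.85. CP190 had no peak there at any time, and no protein had one there at 0 or 48 h. The nearest 0 h peak, of Su(Hw), was 5193 bp away.

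Regions bound at 3 h only were weak in each of the 3 h lists. Of their 628 peaks, 516 (82.2%, 79.0 to 84.96) had a score under 200, 24 reached 300 and 2 reached 500. Among the whole 3 h arm lists, a score under 200 was listed for 16.2% of CP190 peaks, 20.5% of Su(Hw) peaks, 30.3% of dCTCF peaks and 12.8% of BEAF-32 peaks. A score percentile is used here for the share of the other arm peaks of the same list that had a lower score. The median percentile over the 628 peaks was 8.64 (7.91 to 9.67), and 1 peak stood above the 50th percentile of its list. The medians were 6.84 (5.05 to 10.3) for CP190, 9.20 (8.22 to 10.6) for Su(Hw), 13.0 (7.91 to 19.9) for dCTCF and 7.17 (6.31 to 9.01) for BEAF-32. Low ranks were not particular to 3 h. In the 48 h lists, peaks of regions new at 48 h only had close medians for dCTCF, 13.3 (8.19 to 22.5), and BEAF-32, 7.53 (6.45 to 8.79). They were higher for CP190, 22.4 (15.7 to 28.1), and Su(Hw), 16.1 (14.4 to 18.1).

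Set beside the 3 h peaks of new regions that lasted to 48 h, in the same lists, the difference in score was largest for BEAF-32. Its peaks in 3 h only regions had a median percentile of 7.17, against 20.9 (19.2 to 22.1) in lasting regions, and the median scores were 148.37 and 330.67. For Su(Hw) the medians were 9.20 and 13.6 (12.3 to 15.3), and for CP190 6.84 and 11.8 (9.50 to 15.4). For dCTCF they were 13.0 and 13.0 (7.73 to 20.6), with intervals that covered each other. The share of the 3 h list that lay in 3 h only regions shrank with the score. For Su(Hw) it was 19.5% of peaks with a score of 100 to 150, 12.5% at 150 to 200, 3.99% at 200 to 300 and 1.08% at 300 to 500. For BEAF-32 it was 20.6%, 13.1%, 8.74% and 2.36% over the same classes, whereas the share in lasting regions was 19.7%, 26.2%, 30.8% and 29.3%. At a score of 500 or more, 2 of 4896 Su(Hw) peaks lay in 3 h only regions. None of 3873 CP190 peaks did, which allows up to 0.0775%, nor any of 1834 dCTCF peaks, which allows up to 0.164%, nor any of 4273 BEAF-32 peaks, which allows up to 0.0702%. In lasting regions lay 193 of these 4273 BEAF-32 peaks (4.52%), so that share also fell in the highest class.

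**Figure D2:**
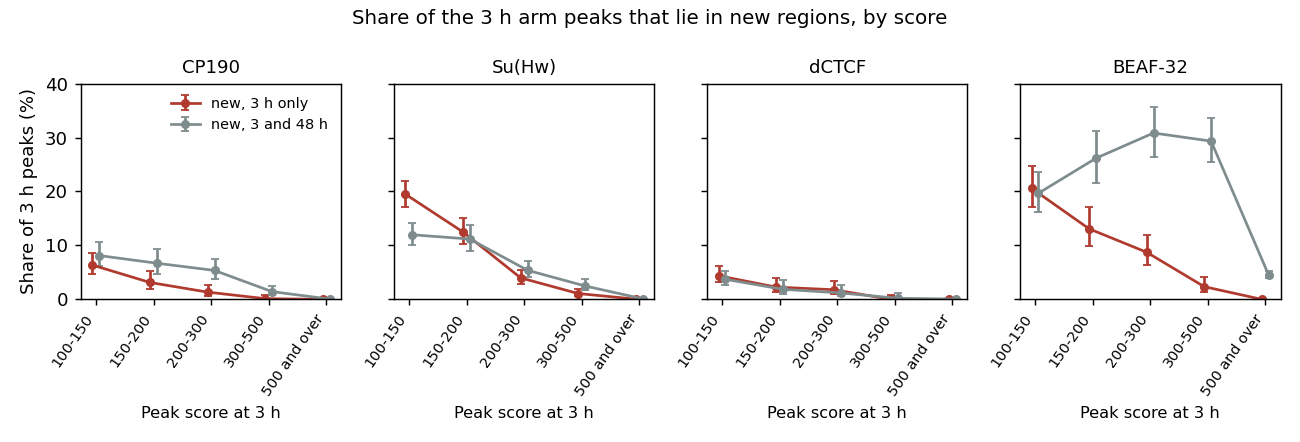
Share of the 3 h arm peaks of each protein, in percent, that lay in new regions bound at 3 h only and in new regions bound at 3 and 48 h, by the deposited peak score at 3 h. Points are shares and error bars are 95% Wilson intervals. For BEAF-32 both shares are near 20% in the lowest class. At scores of 300 to 500 the 3 h only share is 2.36% and the lasting share 29.3%. At 500 or more the lasting share is 4.52%.

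The strongest region of all was 2L:12393293-12393949, a Su(Hw) peak of 657 bp with a score of 811.27 at 3 h, at percentile 50.5 of its list. It lay 419 bp from a 0 h Su(Hw) peak and 338 bp from a 48 h Su(Hw) peak, both with a score of 3100. The next Su(Hw) region, 3L:16997534-16998320, had a score of 505.85 and a BEAF-32 peak of 196.28 on almost the same interval. Its nearest 0 h peak, 1574 bp away, was a weak dCTCF peak (137.98). The Su(Hw) peak at 2L:3345611-3346286 (471.81) stood farther off, 10569 bp from the nearest 0 h peak, which was of CP190.

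The highest BEAF-32 score, 497.80, belonged to 2R:11689816-11690415, which lay 12821 bp from the nearest 0 h peak. The next, 461.06, was at X:148656-149193, only 375 bp from a 0 h BEAF-32 peak with a score of 151.95 and 288 bp from a 48 h BEAF-32 peak. A BEAF-32 peak with a score of 423.75 at 2L:9956972-9957570 lay 9213 bp from the nearest 0 h peak.

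For CP190 the leading region was 2R:20537367-20538926, at 1560 bp also among the widest, with a CP190 score of 405.45 and a dCTCF peak of 108.04 inside it. A 48 h CP190 peak with a score of 266.48 lay 410 bp away without touching it, and the nearest 0 h peak was 2524 bp away. The other leading CP190 regions, 2L:6655801-6656911 (229.89) and 3L:11102323-11103272 (227.82), had CP190 alone and lay 5975 and 3076 bp from a 0 h CP190 peak. The dCTCF peaks 3R:7782053-7782431 (274.79), X:19197548-19198072 (270.53) and 3R:6478039-6478400 (262.31) led that list. Each was without a partner, and the nearest 0 h peaks were 5576, 3709 and 11862 bp away.

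The regions were narrow beside merged treated regions on a 0 h peak. Their median width was 491 bp (middle 50% of regions, 442 to 569.5), against 621 bp in lasting new regions, 538 bp in regions new at 48 h only and 1078 bp in treated regions that overlapped a 0 h peak. Lasting regions and those on a 0 h peak merge peaks of both treated times, which can make them wider. Of the regions on a 0 h peak, 61.8% also held 2 or more proteins. Single 3 h peaks in 3 h only and in lasting regions had median widths of 861 and 919 bp for CP190, 474.5 and 490 bp for Su(Hw), 456 and 450 bp for dCTCF, and 501 and 561 bp for BEAF-32. Peak width differed by protein as it did in the whole lists. CP190 peaks had a median of 861 bp in 3 h only regions and 1103 bp in the whole 3 h arm list, Su(Hw) 474.5 and 636.5 bp, dCTCF 456 and 551 bp, and BEAF-32 501 and 781 bp. Only 16 of the 602 regions were wider than 1 kb. The widest were the Su(Hw) region 3R:19151302-19153087, with 1786 bp and a score of 120.67, the CP190 and dCTCF region on 2R given above, and the Su(Hw) region X:12572213-12573561, with 1349 bp and a score of 361.55.

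A protein can gain a peak at 3 h alone on a site that another protein already held, and such peaks are not among the 602 regions. The 3 h only peaks of each protein divided in different proportions between the 2 kinds of place. Of 572 dCTCF peaks that overlapped no dCTCF peak of 0 or 48 h, 53 (9.27%, 7.15 to 11.9) lay in 3 h only regions and 482 (84.3%, 81.1 to 87.0) on a 0 h peak of another protein, among them 298 on Su(Hw), 240 on CP190 and 211 on BEAF-32, with some on several. Of 505 such CP190 peaks, 59 (11.7%, 9.17 to 14.8) lay in 3 h only regions and 392 (77.6%, 73.8 to 81.0) on a 0 h peak of another protein. For BEAF-32 the split of 376 peaks was nearly even, with 176 (46.8%, 41.8 to 51.9) in 3 h only regions and 180 on another protein. Su(Hw) leaned the other way: 340 of 615 (55.3%, 51.3 to 59.2) lay in 3 h only regions and 224 (36.4%, 32.7 to 40.3) on a 0 h peak of another protein. The remainder lay in merged regions that also held 48 h peaks or reached a 0 h peak. The proteins also differ in how often they stand alone elsewhere. In treated regions that overlapped a 0 h peak, Su(Hw) was alone in 33.5% of its regions and dCTCF in 15.7%. BEAF-32 was alone in 15.4% and CP190 in 3.96%. The share of all 3 h peaks on a 0 h peak of another protein is not given here, so the splits have no direct background. For CP190 the median percentiles were 6.84 in 3 h only regions and 8.55 (7.40 to 9.53) on other proteins, and for dCTCF 13.0 and 13.9 (12.4 to 15.5). For Su(Hw) they were 9.20 and 7.71 (6.12 to 9.08), and for BEAF-32 7.17 and 6.56 (5.48 to 7.51).

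**Figure D3:**
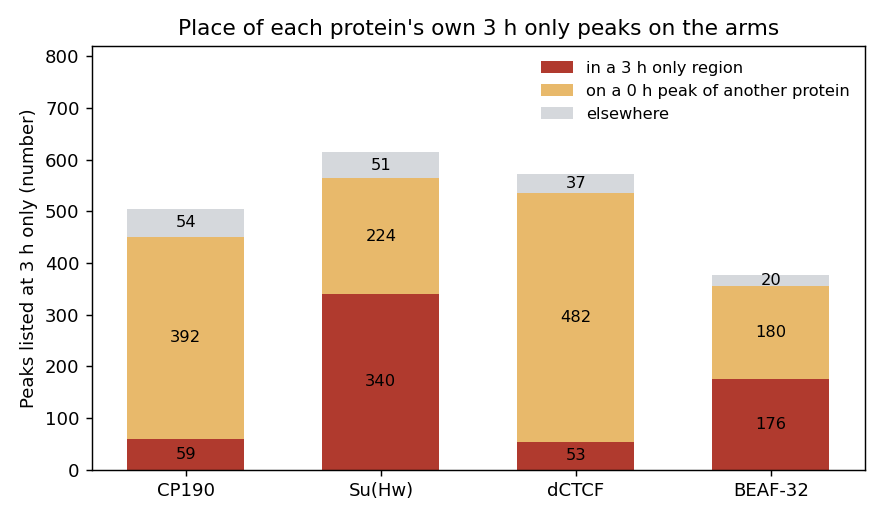
Number of arm peaks of each protein that overlapped no 0 h and no 48 h peak of the same protein, divided by place: in a region bound at 3 h only by any protein, on a 0 h peak of another protein, or elsewhere. Bars are stacked counts from 1 library per time. Su(Hw) has 340 of 615 peaks in 3 h only regions and dCTCF 53 of 572.

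Gaps to sites bound before hormone depend on how densely those sites lie, and the 0 h arm peaks merged into 11734 regions. The gap of random positions was not computed, so the gaps are set beside those of other new regions only. The median gap to the nearest 0 h peak of any protein was 1983 bp (1673 to 2304), against 2021 bp (1839 to 2204) for lasting new regions and 2004 bp (1815 to 2298) for regions new at 48 h only. Within 1 kb of a 0 h peak lay 223 regions (37.0%), against 29.2% of the lasting and 31.5% of the 48 h only regions, and 476 (79.1%) lay within 5 kb. Only 51 lay more than 10 kb away and 20 more than 20 kb. The nearest 48 h peak was at a median of 1615 bp (1296 to 1878), and 244 regions (40.5%) had one within 1 kb. There were 339 regions with neither a 0 h nor a 48 h peak within 1 kb.

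The gap varied with the protein. Regions of Su(Hw) alone had a median gap of 1326 bp (957 to 1694), and 147 of 325 (45.2%) lay within 1 kb of a 0 h peak. Regions of CP190 alone had a median gap of 3265 bp (2409 to 3852), with 10 of 49 within 1 kb, and regions of BEAF-32 alone 2994 bp (2390 to 3633), with 39 of 158. For dCTCF alone it was 2243 bp (995 to 3578). The nearest 0 h peak was of Su(Hw) for 205 of the 325 Su(Hw) regions (63.1%, 57.7 to 68.1), whereas Su(Hw) contributed 36.4% of all 0 h arm peaks. For BEAF-32 alone the nearest peak was of BEAF-32 in 59 of 158 (37.3%, 30.2 to 45.1), beside 19.2% of all 0 h arm peaks, and for CP190 alone it was of CP190 in 23 of 49 (46.9%, 33.7 to 60.6), beside 26.2%. For dCTCF alone it was of dCTCF in 14 of 45 and of Su(Hw) in 14. The list shares are a rough background. Over all 602 regions the nearest 0 h peak was of Su(Hw) in 46.0%, CP190 in 28.1%, BEAF-32 in 17.8% and dCTCF in 8.14%, while dCTCF made up 18.3% of 0 h arm peaks. Of the 602 nearest 0 h peaks, 569 (94.5%, 92.4 to 96.1) overlapped a 3 h peak of their own protein, beside 91.7% of all 0 h arm peaks, and 526 (87.4%, 84.5 to 89.8) a 48 h peak, beside 87.0%.

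**Figure D4:**
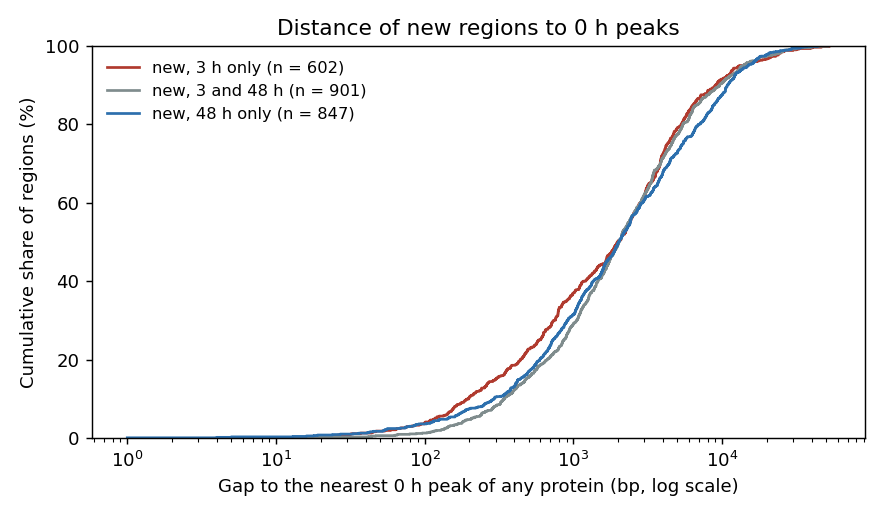
Cumulative share of regions, in percent, by the gap in bp to the nearest 0 h peak of any protein on a log axis, for new regions bound at 3 h only, at 3 and 48 h and at 48 h only; a gap of 0 is drawn at 1 bp. The 3 curves cross 50% near 2 kb, and 37.0% of the 3 h only regions lie within 1 kb.

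The regions nearest the limit of 1 bp were the BEAF-32 peak 3R:5320238-5320677, 6 bp from a 0 h BEAF-32 peak, and the Su(Hw) peaks 3L:11671384-11671825 and X:2196818-2197433, 16 and 17 bp from 0 h Su(Hw) peaks. Just outside it, the Su(Hw) peak 3R:17459969-17460440 overlapped a 0 h Su(Hw) peak by 20 bp and 2L:18796400-18796931 by 29 bp. On the side of 48 h, the Su(Hw) peak 3L:16793066-16793463 missed a BEAF-32 peak by 2 bp and was kept, while the BEAF-32 peak 3R:1448654-1449232 overlapped one by 1 bp and was not. With a 0 h peak within 1 kb counted as overlap, 379 regions remained by the rule. With a 48 h peak within 1 kb counted as presence at 48 h, 358 did.

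At the other end, the most isolated region was the dCTCF peak 3L:6328195-6328650 (score 104.93), 52616 bp from the nearest 0 h peak and 52654 bp from the nearest 48 h peak, both of Su(Hw). The Su(Hw) peak 2L:15333649-15334019 (112.41) lay 46549 bp from a 0 h peak but 5010 bp from a 48 h Su(Hw) peak. The third, 3L:10774355-10774870, held Su(Hw) (107.26) and BEAF-32 (124.45), 40434 bp from a 0 h peak and 2772 bp from a 48 h Su(Hw) peak. All 3 were near the lowest score listed. Of the 20 regions more than 20 kb from a 0 h peak, 8 had a 48 h peak within 10 kb.

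The regions were spread over all 6 arms. They numbered 137 on 3L, 127 on 3R, 121 on X, 115 on 2R, 97 on 2L and 5 on chromosome 4. As shares of all 3 h regions of an arm, these were 5.47% on 3L (4.65 to 6.44), 4.27% on 3R (3.60 to 5.06), 4.75% on X (3.99 to 5.65), 4.88% on 2R (4.08 to 5.82), 4.37% on 2L (3.59 to 5.30) and 5.0% on chromosome 4 (2.15 to 11.2), with intervals that all overlapped. X held 20.1% (17.1 to 23.5) of the 3 h only regions and 20.0% of all 3 h regions. dCTCF had 15 of its 53 regions on X (28.3%, 18.0 to 41.6), beside 21.1% of its 3 h arm peaks, and CP190 had 7 of 59 there (11.9%, 5.87 to 22.5), beside 19.2%. Both shares of the whole lists lay within those intervals.

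**Figure D5:**
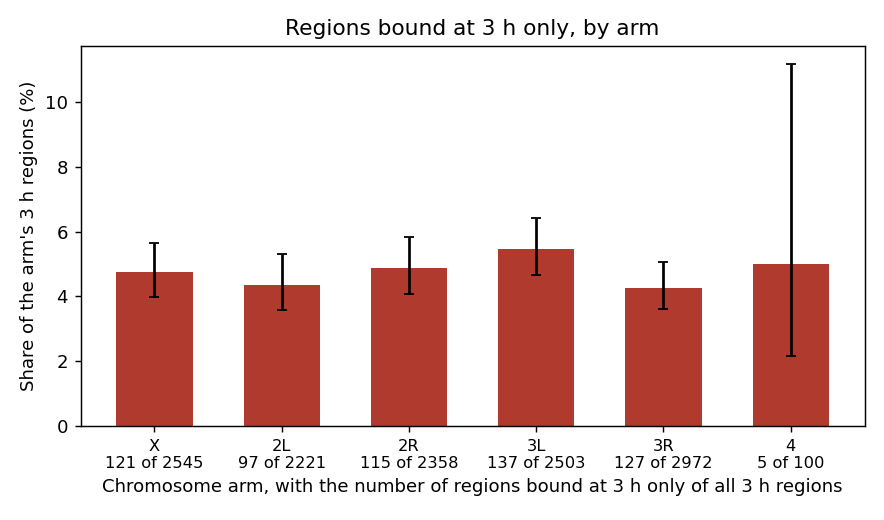
Share of the 3 h regions of each chromosome arm, in percent, that were bound at 3 h only, with the counts under each arm. Bars are shares and error bars are 95% Wilson intervals. The bars stand between 4.27% on 3R and 5.47% on 3L, and their intervals overlap.

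The median gap between neighbouring regions along an arm was 126.5 kb, and 74 of the 602 had another within 5 kb. No spacing of randomly placed regions was computed, so whether the regions cluster was not tested. In windows of 50 kb, 417 regions stood alone in theirs, 73 windows held 2, 9 held 3 and 3 held 4. All 3 windows with 4 regions were on 3L. Between 8750001 and 8800000 there were BEAF-32 peaks at 3L:8756063-8756536 (126.11), 3L:8756584-8757055 (223.56) and 3L:8766690-8767249 (229.73) and a Su(Hw) peak at 3L:8798902-8799408 (180.10), in a window with 8 peaks at 0 h. Between 18850001 and 18900000 lay 2 CP190 regions, 1 of BEAF-32 and 1 of Su(Hw), with scores from 100.19 to 175.21. Between 21150001 and 21200000 lay 3 of Su(Hw) and 1 of BEAF-32, with scores from 109.28 to 163.43. A new region that lasted to 48 h was found within 5 kb of 85 of the 602, and a region new at 48 h only within 5 kb of 61. These 2 counts have no background either.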

How the data were processed

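The series has 14 samples: 12 ChIP libraries and 2 inputs (not analysed here). Alignment used Bowtie 0.12.5, per the submitters' processing notes, and the names of the peaks begin with MACS, per the files. Caller settings, control and genome build are not stated there; sequence names follow Release 5. The peak score deposited by the authors has no stated definition. It was used within each list, except for score classes with fixed limits, and values of 3100 or more counted as tied. Positions are counted from 1, with 1 added to each deposited start, and 2 of 81028 peaks with a start below 0 were kept.

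The members and lists were chosen with earlier results of these data known. U, Uextra, pieces ending in Het and the mitochondrial genome were left out. Intervals are Wilson intervals for shares and order-statistic intervals for medians; a count of 0 allows 3 counts of the total. With 1 library per protein and time no test was run. Regions named are, for each protein, the 3 with the highest score percentile, those with 3 or more proteins, the 3 farthest from a 0 h peak, the 3 widest and the 3 fullest windows of 50 kb, plus those at the limit of the rule. Genes and sequence were not analysed here, for lack of an annotation and genome of the build of the lists. The classification was run on simulated lists and recovered 3000 of 3000 new sites. The simulated sites lay well apart and kept their proteins at every time. No site nearly touched another or was missed by a list, so the run checks the code only. It says nothing on regions near the limit of the rule. Python 3.11.15, numpy 2.4.6, scipy 1.17.1 and matplotlib 3.10.9 were used.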

Additional observations from a re-analysis of the deposited data

Results flagged for a closer look

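On the sequences left out by the rule (U, Uextra and the pieces ending in Het), the same rule gave 66 regions bound at 3 h only, a signal outside the arms on which the counts above rest. Of these, 44 lay on U and Uextra and 22 on the Het pieces. BEAF-32 was in 24 of them, CP190 in 22, dCTCF in 20 and Su(Hw) in none. Su(Hw) had few peaks off the arms at 3 h, with 8514 on all sequences and 8492 on the arms. The same counts were 6830 and 5882 for BEAF-32, 7301 and 6254 for CP190, and 5352 and 4085 for dCTCF. The absence of Su(Hw) is therefore not read as a trait of the 66 regions. On these sequences 106 regions were new at both 3 and 48 h and 176 at 48 h only.

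The number of peaks in 3 h only regions minus the number in 48 h only regions differed in sign between proteins. It was 1 for dCTCF, with 53 and 52 peaks, but -10 for CP190 (59 and 69), -43 for BEAF-32 (176 and 219) and -228 for Su(Hw) (340 and 568). As shares of the arm lists, which differ in length, the sign was the same for all 4: 1.30% at 3 h only and 1.56% at 48 h only for dCTCF, 0.943% and 1.22% for CP190, 2.99% and 3.71% for BEAF-32, and 4.00% and 6.82% for Su(Hw). With 1 library each, the difference between proteins was not tested.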

How the results depend on the processing

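The 9 summary values were recomputed under 13 other settings, which gave 112 values. Of these, 65 stayed within 1.5 times the main count or within the 95% interval of the share or median, and 47 did not. The share of regions on X stayed within its interval under every setting except that with only the upper 50% of the 3 h lists. The causes were not tested, apart from what a setting fixes by its construction.

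With a 0 h peak within 1 kb counted as overlap there were 379 regions, with Su(Hw) in 48.81%, BEAF-32 in 34.30% and a median gap to a 0 h peak of 3691 bp. With a 48 h peak within 1 kb counted as presence at 48 h there were 358, with 48.88%, 33.24% and 3491 bp. Merging peaks less than 200 bp apart gave a gap of 2445 bp. With every list cut to its upper 50% by score there were 248 regions, 97.58% with 1 protein, and CP190 was in 19.35%, Su(Hw) in 45.56%, dCTCF in 13.31% and BEAF-32 in 24.19%, with a median percentile of 52.69 and a gap of 4333 bp. With only the 3 h lists cut in that way, 1 region was left, a Su(Hw) peak at percentile 50.54 and a gap of 419 bp that was not on X, so the shares were 100% for 1 protein and for Su(Hw), and 0% for CP190, dCTCF, BEAF-32 and X. With the lists of a protein at equal length there were 363 regions, 98.07% with 1 protein, 72.45% with Su(Hw) and 11.29% with BEAF-32, at a median percentile of 16.92 of the whole lists. On all sequences Su(Hw) was in 50.90%.

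Leaving out Su(Hw) at all times gave CP190 in 35.52%, dCTCF in 25.59% and BEAF-32 in 43.94% of the regions, with a gap of 3915.5 bp. Leaving out BEAF-32 gave CP190 in 32.20% and dCTCF in 15.68%, leaving out CP190 gave dCTCF in 11.39% and BEAF-32 in 34.01%, and leaving out dCTCF gave CP190 in 12.77%. With each protein on its own, where sites of other proteins do not matter, there were 2068 regions, of which CP190 had 24.42%, Su(Hw) 29.74%, dCTCF 27.66% and BEAF-32 18.18%, with a gap of 4713.5 bp to a 0 h peak of the same protein. No paired analysis was possible because each protein and time had 1 library and no test was run. Unknown read depth limits any statement on peaks absent from a list.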
